A study of Mus musculus with 8 samples.

Results

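The genes examined were Top2a, Smc2, Smc4, Tmpo, Nucks1 and Arl6ip1, 6 of the 9140 genes measured in cultured mouse hippocampal progenitors. They were chosen by measured values from these same cells. In an earlier embedding of the day 0 cells, Top2a, Smc2, Smc4, Tmpo and Nucks1 had the leading weights of the first principal component of cell-cycle genes, and Arl6ip1 had the leading weight of the other component. Their co-expression at day 0 is therefore a description of that choice, whereas the cells of later days had no part in it. All 6 had a row in the data.

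The cells came from the dissected hippocampus of embryos of C57BL/6J females mated to Kmt2d+/βgeo males, at embryonic day 18 per the labels (the study's methods give 1 day earlier). They carried either the gene-trap allele Mll2Gt(RRt024)Byg on 1 copy of Kmt2d, or both normal copies in littermate embryos, called wild type. Both were kept undifferentiated with the growth factors EGF and FGF2 (day 0) and collected again 2, 4 and 8 days after these were removed. Each genotype and day had 1 library of a droplet assay that tags the 3′ end of each RNA with a unique molecular identifier (UMI), which makes 8 libraries in all. The paper mentions replicate cultures, but the labels give 1 library per genotype and day, so a library and its group cannot be told apart. No test between libraries was run, and all intervals cover counting error only.

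The products of these genes act on chromosomes and membranes as a cell prepares to divide. Top2a encodes topoisomerase II alpha, which cuts and reseals DNA to untangle it, and its protein accumulates until mitosis and is then degraded. Smc2 and Smc4 encode the paired ATPase arms of condensin, the ring complex that compacts chromosomes. Tmpo encodes the LAP2 proteins, which tie chromatin and lamins to the inner nuclear membrane. Nucks1 encodes a chromatin-bound substrate of cyclin-dependent kinases with roles in DNA repair. Arl6ip1 encodes a hairpin membrane protein that shapes the tubules of the endoplasmic reticulum. Neural progenitors leave the cell cycle when mitogens are withdrawn, so genes used only by dividing cells are commonly lost at that step.

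On GRCm38 the genes lie on 6 different chromosomes. Top2a (ENSMUSG00000020914) spans chr11:98992943-99024189 on the minus strand, with 36 exons in its longest transcript. Smc2 (ENSMUSG00000028312) spans chr4:52439243-52488260 on the plus strand with 25 exons, and Smc4 (ENSMUSG00000034349) spans chr3:69004738-69034623 on the plus strand with 24. Tmpo (ENSMUSG00000019961) spans chr10:91147571-91181315 on the minus strand. Nucks1 (ENSMUSG00000026434) spans chr1:131910534-131936321 on the plus strand with 7 exons, and Arl6ip1 (ENSMUSG00000030654) spans chr7:118118891-118129662 on the minus strand with 6. Smc4 overlaps the microRNA genes Mir15b and Mir16-2 on its own strand. Top2a, Smc2, Tmpo and Nucks1 each share bases with 1 or 2 other annotated genes, 1 of them on the opposite strand in each case. The remaining overlaps of Top2a, Nucks1 and Smc4 are on the same strand, where reads from shared bases could belong to either gene. Arl6ip1 overlaps no other annotated gene.

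The promoters of these genes are shown because the genes were chosen for varying together at day 0. The TTTGAA element (TTCAAA on the other strand, also known as the CHR) is a known docking site of the complexes that hold late cell-cycle genes silent in resting cells, with TTCGAA as a known variant. The CCAAT box (ATTGG on the other strand) is the site of NF-Y. The 250 bases before the transcription start are printed from 5′ to 3′ on the gene's own strand, from RefSeq on GRCm38.p6, and the table held 5 of the 6 genes. Capitals mark each match to one of these elements on either strand. The windows are Top2a at chr11:99024190-99024439, Smc2 at chr4:52438971-52439220, Tmpo at chr10:91171620-91171869, Nucks1 at chr1:131910208-131910457 and Arl6ip1 at chr7:118129626-118129875.
Top2a: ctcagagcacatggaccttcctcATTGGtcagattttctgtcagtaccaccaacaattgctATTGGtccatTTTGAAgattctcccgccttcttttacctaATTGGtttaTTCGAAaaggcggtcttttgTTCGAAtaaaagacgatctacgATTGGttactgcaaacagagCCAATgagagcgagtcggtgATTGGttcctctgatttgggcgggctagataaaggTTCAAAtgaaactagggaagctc
Smc2: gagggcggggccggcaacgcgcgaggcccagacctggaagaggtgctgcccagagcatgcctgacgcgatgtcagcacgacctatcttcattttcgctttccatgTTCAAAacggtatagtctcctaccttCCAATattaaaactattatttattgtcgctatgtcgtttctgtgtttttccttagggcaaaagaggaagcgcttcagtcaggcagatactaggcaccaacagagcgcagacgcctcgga
Tmpo: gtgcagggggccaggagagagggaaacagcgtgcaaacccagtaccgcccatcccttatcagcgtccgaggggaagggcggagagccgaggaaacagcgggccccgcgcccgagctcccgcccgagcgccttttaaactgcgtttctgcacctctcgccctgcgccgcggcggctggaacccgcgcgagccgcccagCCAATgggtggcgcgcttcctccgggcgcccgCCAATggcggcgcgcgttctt
Nucks1: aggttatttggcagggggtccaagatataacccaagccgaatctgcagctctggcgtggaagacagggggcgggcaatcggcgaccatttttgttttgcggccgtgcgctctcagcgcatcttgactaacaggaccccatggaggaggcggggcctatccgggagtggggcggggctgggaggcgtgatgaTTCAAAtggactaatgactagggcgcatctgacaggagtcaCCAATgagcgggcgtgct
Arl6ip1: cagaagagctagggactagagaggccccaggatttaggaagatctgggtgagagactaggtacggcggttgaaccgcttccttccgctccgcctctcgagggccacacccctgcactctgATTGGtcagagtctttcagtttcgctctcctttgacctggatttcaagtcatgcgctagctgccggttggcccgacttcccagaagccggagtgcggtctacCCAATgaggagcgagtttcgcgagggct

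Counted from the base before the start as -1, the Top2a window held TTTGAA-type letters beginning at -179 and -23, TTCGAA at -140 and -120, and 6 CCAAT-type matches. Smc2 held one of each type, at -145 and -119, and Nucks1 held them at -59 and -18. The Tmpo window held CCAAT at -53 and -21 and no TTTGAA, but the window of a second Tmpo start at chr10:91170551-91170800 held TTTGAA at -28. Arl6ip1 held CCAAT-type letters at -130 and -28 and no match to TTTGAA or TTCGAA. Of 32851 mouse promoter windows of the same length, 16.0% held TTTGAA on either strand, 1.34% held TTCGAA, 33.8% held CCAAT and 5.55% held both TTTGAA and CCAAT. These matches are a description of letters and no binding was measured.

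Some libraries need a remark before the levels are read. The day 4 libraries of both labels were nearly alike, since the SD of their log2 ratios over 7459 genes was 0.109, against 0.342 to 0.492 for the pairs of the other days. Luzp2 had a mean normalised count of 0.287, 1.48 and 2.62 at days 0, 2 and 8 in the libraries labelled Kmt2d+/βgeo and at most 0.0575 in all libraries labelled wild type, but 0.0502 in the day 4 library labelled Kmt2d+/βgeo. Luzp2 is not one of the 6 genes and was named after its values were seen. The label of that library is therefore in doubt, although it shared only 2 cell barcodes with its partner (0 to 10 for any pair of libraries). The Kmt2d transcript, from 0.157 to 0.295 in the 8 libraries, was not lower in the labelled libraries on days 0, 4 and 8, and a 3′ tag does not check a gene trap. Depth was lowest in the Kmt2d+/βgeo library of day 8, with a median of 3972 UMIs per cell on the measured genes against 6989 to 11230 in the others. In the day 0 libraries all 4 measured neural progenitor markers of a list of 9 (Pax6, Vim, Fabp7 and Sox9) were present, summing to 71.8 and 60.2 normalised counts, and the other 5 were not analysed here. Most of these sums was Vim and Fabp7, with Pax6 at 0.202 and 0.228. The same sum was 66.3 to 128 in the later libraries, so it does not set day 0 apart.

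Of the 6 genes, Top2a was nearly absent after day 0, Smc2, Smc4 and Tmpo were retained in part, Nucks1 was lowest at day 2 and higher again by day 8, and Arl6ip1 stayed in most cells. Levels are the mean normalised count per cell, and the library labelled Kmt2d+/βgeo is given first on each day. A log2 ratio of -1 or lower was counted as past the fold. All 6 were below their day 0 level in all 6 later libraries. In the libraries labelled Kmt2d+/βgeo, 5 of the 6 were past the fold at day 2, where 6.74% of 7502 genes were, at day 4, where 6.61% of 7669 were, and at day 8, where 13.9% of 7765 were. In the wild-type libraries it was 5 at day 2 against 5.56% of 7451 genes, 5 at day 4 against 6.6% of 7626, and 4 at day 8 against 10.9% of 7737. The 3 comparisons of a genotype share their day 0 library, which is also where the genes were chosen for their spread, so these counts describe the choice as well as the days.

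Top2a had a mean normalised count of 3.50 and 3.30 at day 0, 0.108 and 0.0973 at day 2, 0.135 and 0.142 at day 4, then 0.0550 and 0.122 at day 8. Both day 0 libraries stood far above all 6 later ones, which held 1.57% to 4.29% of their day 0 level. The log2 ratios to day 0 were -5.02, -4.70 and -5.99 in the libraries labelled Kmt2d+/βgeo and -5.08, -4.54 and -4.75 in wild type. Between 0 and 7 of the genes measured in each of these comparisons had a lower ratio than Top2a. After each cell was thinned to 3000 UMIs, 37.8% and 33.5% of day 0 cells held a Top2a UMI, and between 0.951% and 2.41% of cells in the later libraries did. Before thinning the later shares were 1.28% to 5.64%, from 111 to 804 UMIs per library.

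What remained of Top2a after day 0 was unevenly spread. In the later libraries, cells with any Top2a UMI held 1.99 to 2.5 on average at 3000 UMIs, and 0.317% to 0.484% of all cells held at least 3. Smc2, the condensin partner seen in several times as many cells at those days, averaged 1.09 to 1.21 UMIs in cells that had any, and 0.158% to 0.374% of cells held at least 3. Cells were not sorted into types, so a background share from cells without these genes cannot be set beside these values.

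Smc2 had a mean normalised count of 2.26 and 1.79 at day 0, 0.318 and 0.321 at day 2, 0.379 and 0.375 at day 4, then 0.288 and 0.283 at day 8. The later libraries lay close together at 12.7% to 21.0% of day 0. Its log2 ratios to day 0 ranged from -2.97 to -2.25. At 3000 UMIs, 37.3% and 30.9% of day 0 cells and 8.26% to 11.6% of later cells held a Smc2 UMI.

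Smc4, the other arm of the same complex, had 2.00 and 1.74 at day 0, 0.595 and 0.523 at day 2, 0.575 and 0.526 at day 4, then 0.549 and 0.578 at day 8. Its log2 ratios to day 0 ran from -1.86 to -1.59, so each later library kept 27.5% to 33.3% of the day 0 level. In no later library did Smc2 keep as large a share of its day 0 level as Smc4 did, although their proteins work as a pair. The thinned share of cells with a Smc4 UMI was 38.3% and 34.9% at day 0 and 14.95% to 17.3% later.

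Tmpo had 1.71 and 1.52 at day 0, 0.675 and 0.516 at day 2, 0.588 and 0.535 at day 4, then 0.438 and 0.498 at day 8. Its lowest later level, in the day 8 library labelled Kmt2d+/βgeo, was 25.6% of day 0, and its highest, at day 2 under the same label, was 39.4%. The wild-type libraries kept 32.9% to 35.3%. The log2 ratios to day 0 were -1.34, -1.54 and -1.97 in the libraries labelled Kmt2d+/βgeo and -1.56, -1.50 and -1.61 in wild type. The thinned share was 37.6% and 33.6% at day 0 and 12.5% to 19.2% later.

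Nucks1 followed another course. Its mean normalised count was 4.33 and 3.24 at day 0, 0.895 and 0.946 at day 2, 1.52 and 1.45 at day 4, then 1.69 and 1.67 at day 8. The log2 ratio of day 8 over day 2 was 0.92 in the libraries labelled Kmt2d+/βgeo and 0.82 in wild type, or 0.89 (95% interval 0.81 to 0.96) and 0.80 (0.74 to 0.87) from summed UMIs. Most of that difference was already there at day 4, where the ratio to day 2 was 0.77 and 0.61. The day 4 step does not rest on the library in doubt, since the wild-type series shows it too and day 8 stood above day 2 under both labels.

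At day 8 Nucks1 was still at 39.0% and 51.5% of its day 0 level, a log2 ratio of -1.36 and -0.96, and the latter kept it out of the wild-type count at day 8. From summed UMIs that ratio was -1.11 (-1.16 to -1.06), which is past the fold. At equal depth Nucks1 was found in 69.2% and 59.1% of day 0 cells, in 25.1% and 27.1% at day 2, 41.8% and 38.65% at day 4, then 43.3% and 41.4% at day 8. Day 2 was thus lowest in levels and in shares of cells.

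Arl6ip1 had a mean normalised count of 8.44 and 8.77 at day 0, 5.87 and 5.97 at day 2, 6.29 and 6.27 at day 4, then 5.48 and 6.84 at day 8. All 6 later libraries kept 65.0% to 78.0% of their day 0 level, with log2 ratios from -0.62 to -0.36, none of them past the fold. Between 15.9% and 31.4% of the genes measured in these comparisons had a lower ratio. Its share of cells with a UMI stayed high at 3000 UMIs: 81.3% and 82.6% at day 0, 82.0% and 83.1% at day 2, 87.6% and 87.4% at day 4, then 83.3% and 89.2% at day 8. That depth nearly fills the share, and at 1500 UMIs it was 62.5% and 65.0% at day 0 and lower in 3 of the 6 later libraries, with 60.7% and 60.5% at day 2 and 58.2% under the Kmt2d+/βgeo label at day 8, and 65.3% to 68.3% in the other 3. The number per cell was lower in all 6, since cells with an Arl6ip1 UMI held 3.64 and 3.69 on average at day 0 and 2.34 to 2.67 later.

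**Figure D1:**
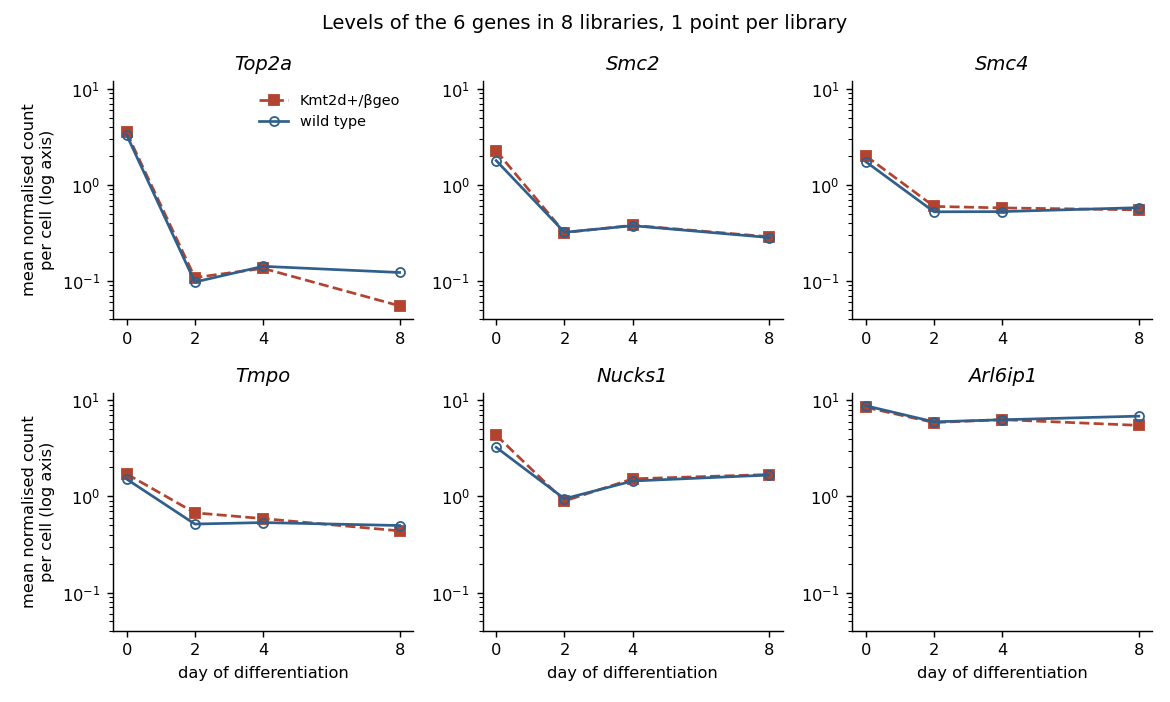
Mean normalised count per cell (log axis) of each gene against the day of differentiation, 1 point per library, squares for Kmt2d+/βgeo and circles for wild type; there are no replicate libraries, so no error bars are drawn. Top2a goes from 3.50 and 3.30 at day 0 to at most 0.142 later, Nucks1 is higher at days 4 and 8 than at day 2, and Arl6ip1 stays between 5.48 and 6.84 after day 0.

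A genotype difference was counted by the same fold. A log2 ratio of at least 1 in either direction was reached by 0 of the 6 at day 0, where 1.55% of 7117 genes reached it, by 0 at day 2 (2.84% of 7364), by 0 at day 4 (0.0% of 7459, the pair in doubt) and by 1 at day 8 (4.87% of 7576). With only 6 genes, these counts do not set them apart from all genes. At day 0 the log2 ratio of the library labelled Kmt2d+/βgeo over wild type was 0.42 for Nucks1, 0.34 for Smc2, 0.20 for Smc4, 0.18 for Tmpo, 0.08 for Top2a and -0.05 for Arl6ip1. In summed UMIs, Nucks1 gave 0.38 (0.35 to 0.40) and Smc2 0.27 (0.23 to 0.30), outside counting error but with 1 library on each side. Of the genes compared at day 0, 94.3% had a lower ratio than Nucks1 and 91.0% a lower one than Smc2. At day 2 Nucks1 and Smc2 gave -0.08 and -0.01.

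The gene past the fold at day 8 was Top2a, whose mean normalised count was 0.0550 beside 0.122 in wild type, a log2 ratio of -1.15. It rests on 111 and 354 UMIs, and 1.60% of the genes compared had a lower ratio. In summed UMIs the ratio was -0.71 (-1.03 to -0.40) and in thinned cells -0.78, neither past the fold, while without the 5% deepest cells it was -1.48. Depth moves with this difference, because that library had the lowest depth of the 8, and its part in the result was not tested. Tmpo stood at 0.675 against 0.516 at day 2, a log2 ratio of 0.39 that was higher than that of 91.9% of genes, and Arl6ip1 at 5.48 against 6.84 at day 8, a ratio of -0.32.

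Co-expression was read within each library as the Pearson correlation of log2(UMI + 1) across cells thinned to 3000 UMIs, for the 15 pairs of the 6 genes. The cells of a pair share their library and their depth, so the values are descriptions without a p. At day 0, where the genes were chosen, the median of the 15 pairs was 0.355 in 4308 cells labelled Kmt2d+/βgeo and 0.342 in 4857 wild-type cells, and all 15 pairs were above 0.1 in both libraries. The share of all gene pairs above 0.1 was not computed. Over all measured genes, the 99th percentile of the correlation with Top2a was 0.189 and 0.191 at day 0. Top2a with Smc2 led at 0.631 and 0.633, followed by Top2a with Smc4 at 0.586 and 0.556. The condensin pair Smc2 and Smc4 gave 0.503 and 0.481. The 5 pairs with Arl6ip1 were the loosest group, with medians of 0.221 and 0.228 against 0.376 and 0.390 for the 10 pairs without it.

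After day 0 the correlations were lower throughout. Over the 15 pairs, day 2 had medians of 0.0620 and 0.0455, day 4 of 0.0458 and 0.0477, and day 8 of 0.0318 and 0.0649. Of the 90 values in the 6 later libraries, 23 were above 0.1, and without the day 4 libraries it was 16 of 60. The value 0.1 does not mean the same in each library. The 99th percentile of the correlation with Top2a over all measured genes was 0.0672 and 0.0722 at day 2, 0.0938 and 0.0944 at day 4, then 0.103 and 0.126 at day 8. Top2a with Smc2 had the highest value of the 15 in each later library, with 0.246 and 0.235 at day 2, 0.203 and 0.279 at day 4, then 0.271 and 0.317 at day 8. Without thinning, Top2a with Smc2 still led in each later library, at 0.210 to 0.294. Neither that order nor these values held under all other settings, however. At 1500 UMIs the wild-type library of day 8 gave 0.0984, under Top2a with Smc4 at 0.121, and that of day 4 gave 0.211, under Top2a with Tmpo at 0.212. Without the 5% deepest cells, Top2a with Smc2 was 0.127 and 0.133 at day 2, and in the Kmt2d+/βgeo library of day 4 it was 0.1469 beside 0.1474 for Top2a with Tmpo. Smc2 with Smc4 gave only 0.0222 to 0.0892 in the same libraries. Nucks1 with Arl6ip1, both found in many cells on all days, gave 0.336 and 0.305 at day 0 and -0.0254 to 0.0501 later. In sparse counts such low values are no finding, and their cause was not tested.

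A further reading of the same cells was the number that held both genes of a pair. Top2a and Smc2 were found together in 1113 and 995 cells at day 0, where the product of their single shares gives 608 and 503. At day 2 they were together in 28 and 16 cells, where the product gives 8.71 and 5.61, at day 4 in 16 and 24 against 7.10 and 8.26, and at day 8 in 10 and 21 against 2.02 and 4.71. The observed number was above the product in all 8 libraries, of which those of day 0 describe the choice of genes. For Smc2 and Smc4 at day 8 it was 34 and 54 against 33.7 and 44.2.

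**Figure D2:**
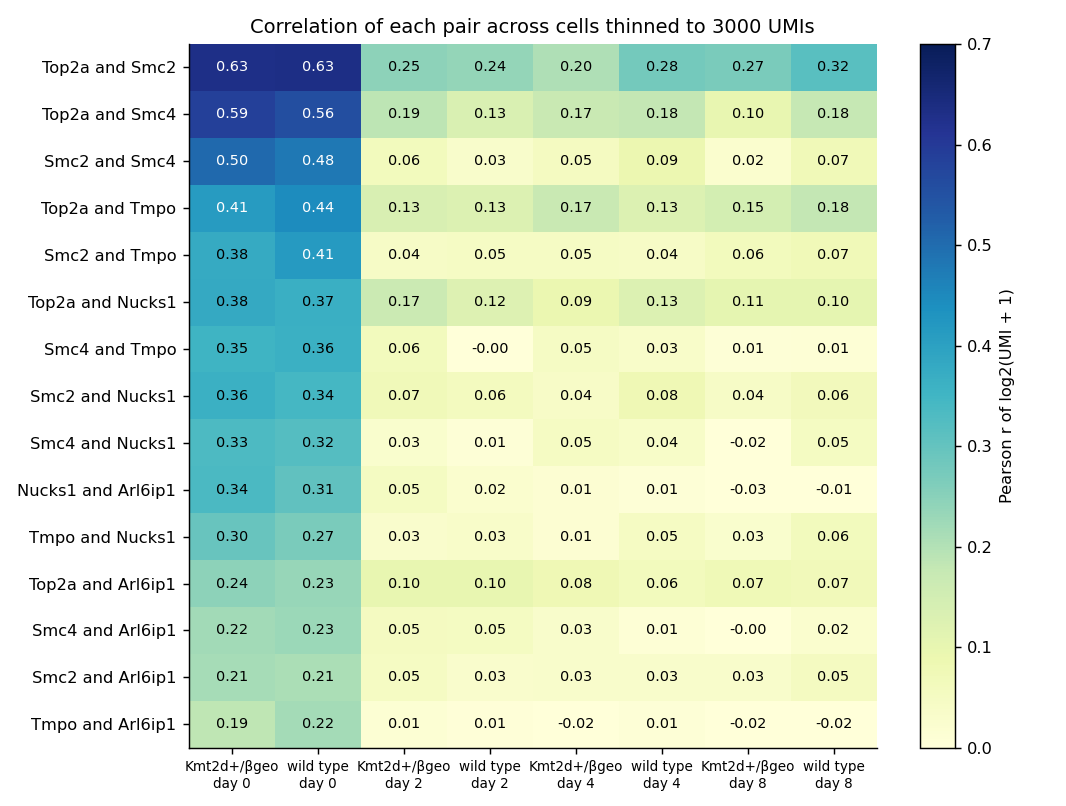
Pearson correlation of log2(UMI + 1) for each of the 15 pairs (rows) in each of the 8 libraries (columns), in cells thinned to 3000 UMIs, with the value in each cell and colours from 0 to 0.7 (values below 0 have the colour of 0). The day 0 columns run from 0.186 to 0.633, and after day 0 only pairs with Top2a stay above 0.1.

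Ranked over all measured genes, Smc2 and Smc4 each had Top2a as their most correlated gene in all 8 libraries. Those of day 0 describe the choice of genes. Tmpo had it in 7, the exception being day 2 in wild type, where Nusap1, a gene for a microtubule-binding protein of the mitotic spindle, stood above it. In the other direction Top2a had Smc2 first only at day 0. Later its leading genes were spindle and kinetochore genes such as Nusap1, Knl1 and Kif11. Arl6ip1 was led at day 0 by Ckap2 or Hmgb1, and after day 0 by genes such as Cst3, Serpine2, Cpe, Mt2 and Apoe. In the wild-type library of day 8, however, Top2a ranked 3 for Arl6ip1, and Kif18a was also among its first 5. In the remaining later libraries the best-ranked of the 6 stood at 13 to 54 for Arl6ip1. Marker levels differed over the same days. Of the astrocyte markers, 5 of a list of 8 (Gja1, S100b, Aldh1l1, Slc1a3 and Apoe) summed to 23.7 and 17.1 normalised counts at day 0 and to 107 to 264 later, most of it Apoe. Not all 5 followed the sum, since Aldh1l1 had 0.648 and 0.845 at day 0 and 0.516 and 0.991 at day 8. Olig2, the 1 measured marker of the oligodendrocyte lineage out of 7, had 5.53 and 8.09 at day 0 and 1.48 and 0.911 at day 8. None of these markers was at 0, and the part of such cells in the Arl6ip1 values was not tested.

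In the deposited log2 values of day 0 cells, averaged over both libraries, the closest genes to Top2a were Smc2 (r = 0.786), Nusap1 (0.773) and the spindle motor gene Kif11 (0.739). Smc2 and Smc4 had each other (0.720), Top2a and Kif11 as their nearest genes. Those of Tmpo were Smc2 (0.650), Top2a (0.634) and Smc4 (0.607), all among the 6. Nucks1 stood nearest to the lamin gene Lmnb1 (0.581), Top2a (0.548) and Hmgb1 (0.548), which encodes an abundant chromatin protein. For Arl6ip1 the nearest 3 held none of the 6 and were Tacc3 (0.516), a spindle gene, the histone variant gene H2az2 (0.492) and Ckap2 (0.480). In cells thinned to equal depth, Nucks1 ranked 2 for Arl6ip1 in the Kmt2d+/βgeo library and 5 in wild type, and all 5 other genes were among its first 100.

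Because Top2a had the largest weight of the first principal component at day 0, cells with and without a Top2a UMI were compared for the other genes. Top2a was also the rarest of the 6 after day 0. There were 1628 cells with Top2a in each day 0 library, then 95 and 54 at day 2, 61 and 81 at day 4, then 21 and 57 at day 8. Smc2 was found in 68.4% and 61.1% of the day 0 cells with Top2a and in 18.5% and 15.6% of those without. At day 2 it was in 29.5% and 29.6% of cells with Top2a, against 8.76% and 10.1%. At day 8 it was in 47.6% (95% exact interval 25.7% to 70.2%) and 36.8% (24.4% to 50.7%) of cells with Top2a, against 9.24% and 7.74%. The difference thus had 1 direction in all 8 libraries, of which those of day 0 describe the choice of genes.

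Smc4 was in 66.1% and 60.6% of day 0 cells with Top2a and in 21.3% and 22.0% of those without, and in 32.1% to 45.6% against 14.5% to 16.9% later. Tmpo gave 57.9% and 56.7% against 25.2% and 22.0% at day 0, and 27.2% to 38.6% against 12.3% to 18.9% later. Nucks1 was in 82.7% and 74.6% against 61.0% and 51.3% at day 0, and in 46.3% to 54.4% against 24.7% to 43.2% later. Under the Kmt2d+/βgeo label it was 49.2% (36.1% to 62.3%) against 41.6% at day 4 and 47.6% (25.7% to 70.2%) against 43.2% at day 8. In wild type at day 8 it was 54.4% (40.7% to 67.6%) against 41.2%. These intervals held the share of the other cells, whereas those of day 2 and of wild type at day 4 did not. Arl6ip1 was found in most cells on either side, with 85.0% and 86.8% against 79.1% and 80.5% at day 0, and 3 of its 6 later differences were below 0, from -4.81 to -1.55 points. At 1500 UMIs its differences were 17.0 and 23.0 points at day 2, 0.730 and 4.24 at day 4, then -1.06 and -0.817 at day 8. In number per cell, however, its mean UMI count in cells with Top2a was 1.54 and 1.64 times that of the other cells at day 0 and 1.35 to 2.20 times later. The ratio was above 1 in all 8 libraries, of which those of day 0 describe the choice of genes. Over the 5 genes the median difference was 33.7 points at day 0 and 17.6 points later, 18.7 without the day 4 libraries. That order turned where at least 2 Top2a UMIs were asked for, with 42.7 points at day 0 and 56.2 later. Cells with Top2a were also deeper before thinning, with a median of 14082 against 10271 UMIs and 12504 against 8677 at day 0, and 5277 to 10042 against 4410 to 8890 later, and the part of depth in the split was not tested.

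**Figure D3:**
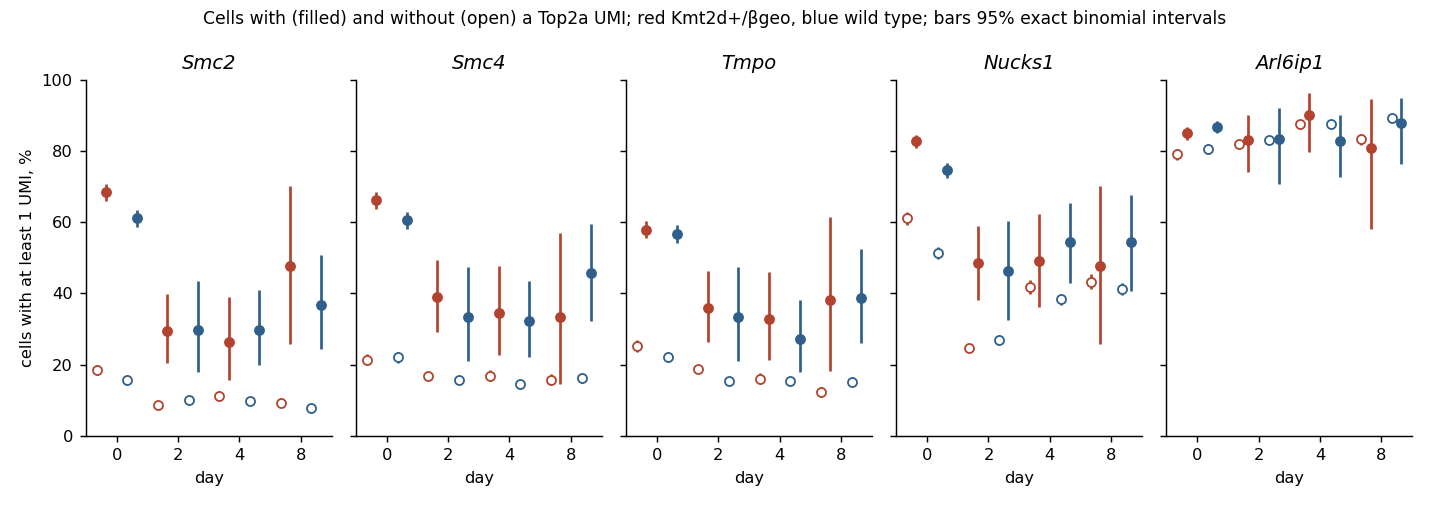
Share of cells with at least 1 UMI of each of the other 5 genes, at 3000 UMIs per cell, against day, for cells with a Top2a UMI (filled) and without one (open), red for Kmt2d+/βgeo and blue for wild type, with 95% exact binomial intervals. Filled points lie above open ones for Smc2, Smc4 and Tmpo in every library, whereas for Arl6ip1 they overlap after day 0. The day 0 points describe the choice of genes.

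The split also shows how the other genes stood in cells with no Top2a UMI, which at 3000 UMIs can include cells that express it. In these cells the mean Smc2 UMI count of later libraries over day 0 gave log2 ratios from -1.44 to -0.90, Smc4 from -0.75 to -0.57 and Tmpo from -1.25 to -0.56. Their being nearer to 0 than the ratios over all cells was fixed by the choice of genes that vary with Top2a at day 0, since leaving out cells with Top2a takes away far more of their day 0 UMIs than of later ones. Nucks1 without Top2a went from -1.90 at day 2 to -0.93 at day 8 in the libraries labelled Kmt2d+/βgeo and from -1.39 to -0.60 in wild type. Only 0.951% to 2.41% of later cells held Top2a at this depth. The course from day 2 to day 8 without Top2a is thus nearly that of all cells and adds no separate evidence. Arl6ip1 gave -0.35 to -0.08.

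Each thinned cell was then scored by how many of the 6 genes it held. All 6 were found together in 476 cells (11.05%) labelled Kmt2d+/βgeo and 424 (8.73%) wild-type cells at day 0. Later libraries held 12 and 5 such cells at day 2, 7 and 9 at day 4, then 4 and 7 at day 8. At least 5 of the 6 were in 24.5% and 19.1% of day 0 cells, where the product of the single shares gives 9.45% and 5.92%, and in 0.272% to 0.592% of later cells, where it gives 0.0741% to 0.177%. At day 0 the cells were spread toward both ends, with more at 5 or 6 genes and also more at 0 or 1 than the product gives.

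The 4 genes Top2a, Smc2, Smc4 and Tmpo were all found in 578 and 547 cells at day 0. After day 0 this was the case in 15 and 6 cells at day 2, 8 and 12 at day 4, then 5 and 10 at day 8, where the product of the single shares gives at most 0.290 cells per library. Of 10 measured mitosis genes, which include Kif11, Nusap1, Tacc3 and Ect2, the later cells with all 4 held 3 to 7.17 on average, against 0.831 to 1.18 in the other cells of their libraries. Nucks1 was in 4 to 12 and Arl6ip1 in 5 to 15 of these cells per library. Their median depth before thinning was higher than that of the other cells in all 8 libraries, for example 15497 against 7551 UMIs at day 2 and 5935 against 4411 at day 8 in the libraries labelled Kmt2d+/βgeo. The authors removed doublets before deposit, and the part of depth or of remaining doublets in these few cells was not tested.

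**Figure D4:**
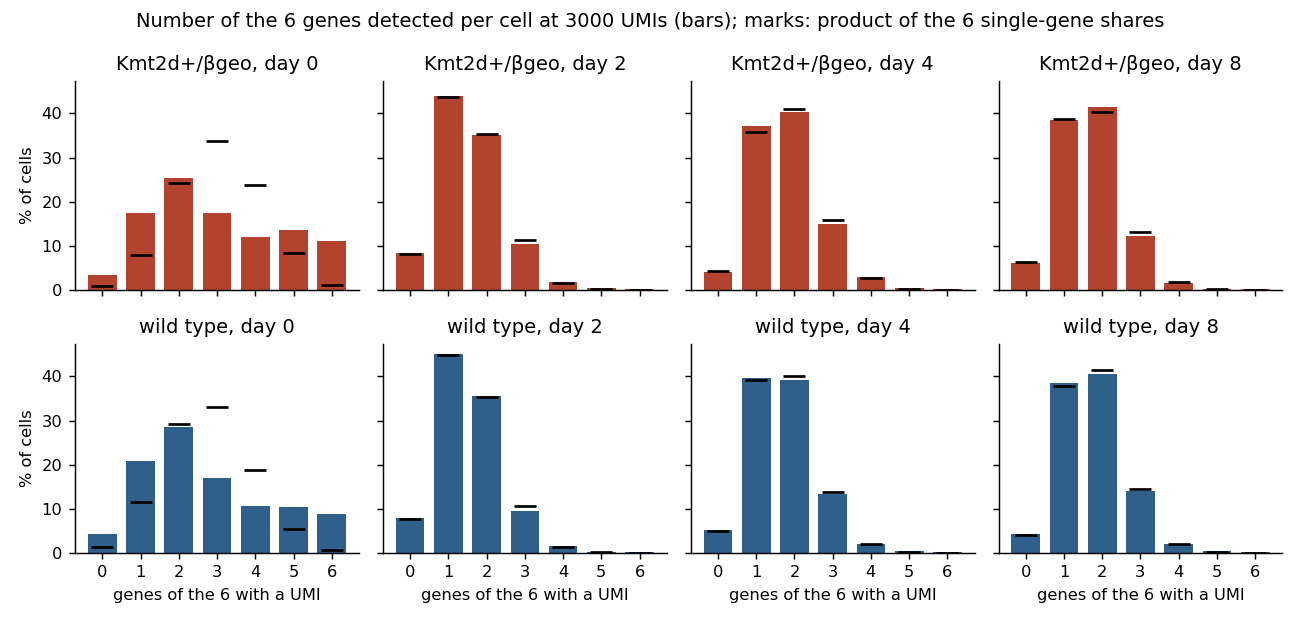
Percent of cells in each library by how many of the 6 genes they hold at 3000 UMIs (bars), with the percent that the product of the 6 single-gene shares gives (black marks). At day 0 the bars exceed the marks at 5 and 6 genes (24.5% and 19.1% of cells together), and after day 0 few cells hold 5 or 6 genes (0.272% to 0.592%), still above the marks at 0.0741% to 0.177%.

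The order of the genes within the cycle was read from the day 0 cells. Each cell was given a position, the angle around the origin in the plane of principal components 1 and 2 of 444 cell-cycle genes, which leave out the 6. The sign of component 1 was set by its correlation with Top2a, and that of component 2 by the mean of S phase genes. That Top2a peaks near π rather than near 0, and the direction in which positions run, were therefore fixed by these choices. Positions are angles from 0 to 2π and give an order of cells, not hours. In all 9188 day 0 cells the smoothed level of Top2a was highest at 1.04π, Smc2 at 1.06π, Smc4 at 1.10π, Tmpo at 1.12π, Nucks1 at 1.19π and Arl6ip1 at 1.35π. In the libraries labelled Kmt2d+/βgeo and wild type on their own the maxima were at 1.06π and 1.02π for Top2a, 1.18π and 1.22π for Nucks1, and 1.3π and 1.35π for Arl6ip1. The largest distance between both libraries for any of the 6 was 0.05π. In the cells of both libraries together, neighbours among Top2a, Smc2, Smc4 and Tmpo were no farther apart than that, while Nucks1 and then Arl6ip1 came later by more. In the wild-type library alone Top2a at 1.02π and Smc2 at 1.08π were farther apart than 0.05π.

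The position accounted for a part of each gene's variance across cells, with an R2 of 0.688 for Top2a, 0.708 for Smc2, 0.602 for Smc4, 0.537 for Tmpo, 0.459 for Nucks1 and 0.391 for Arl6ip1. Top2a had the widest swing, 3.30 in log2 normalised count between its highest and lowest point, and its curve was above the midpoint over 0.62π. The curve of Tmpo, the flattest, swung by 1.80 and stayed above its midpoint over 0.92π. Arl6ip1 differed in its low point as well. It was lowest at 0.73π, where its log2 level was still 2.12, and the other 5 were lowest between 1.88π and 2π or just past 0. With the 6 genes kept in the embedding the low point of Arl6ip1 lay at 0.12π, next to theirs. Since the same cells chose the genes, these positions describe the choice.

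**Figure D5:**
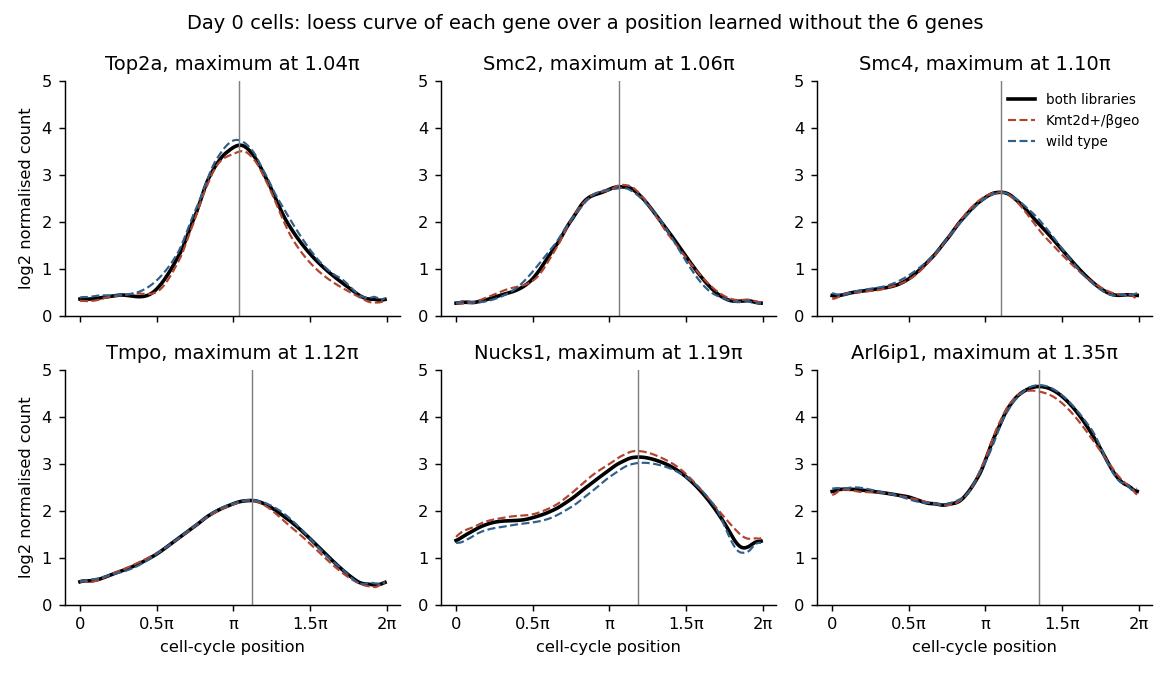
Periodic loess curves of log2 normalised count over cell-cycle position (0 to 2π) in day 0 cells for each of the 6 genes, for both libraries together (black) and each alone (dashed), with the maximum marked by a grey line. The first 4 genes peak between 1.04π and 1.12π, Nucks1 at 1.19π and Arl6ip1 at 1.35π.

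The relatives of these genes showed which of them shared the course after day 0. The lists were fixed with earlier results of these data known, counts are of genes with a log2 ratio to day 0 of -1 or lower, and the share of all genes past it is the one given above for each comparison. Genes that reached the minimum mean of 0.1 only through day 0 could only be lower. A ratio of 1 or higher was reached by 10.7%, 14.8% and 19.0% of all genes at days 2, 4 and 8 under the Kmt2d+/βgeo label and by 8.08%, 11.9% and 16.3% in wild type, and counts of higher genes should be read against these. Of 12 measured SMC, condensin and cohesin genes other than Smc2 and Smc4, 3 to 5 were past the fold in each of the 6 comparisons and 0 were higher by as much, with list medians from -0.76 to -0.38 beside 0.01 to 0.17 over all genes. The non-SMC condensin subunit Ncapd2 went from 0.367 and 0.405 at day 0 to 0.0610 and 0.0875 at day 8, whereas the cohesin subunit Stag2 had 1.05 in both libraries at day 0 and 1.05 and 1.01 at day 8.

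Top2b, the isoform of topoisomerase II that resting neurons use, had a mean normalised count of 2.16 and 2.37 at day 0, 1.81 and 1.95 at day 2, 2.38 and 2.36 at day 4, then 2.21 and 2.14 at day 8. Its log2 ratio of day 8 over day 0 was 0.03 and -0.15, beside -5.99 and -4.75 for Top2a. Of 4 genes compared from a topoisomerase list, 0 or 1 was past the fold in each comparison. At day 2 it was Topbp1, which encodes a topoisomerase-binding checkpoint protein and no topoisomerase, and at day 8 it was Top1 under the Kmt2d+/βgeo label. Of 6 measured genes of the nuclear lamina and LEM family, which share partners with the LAP2 proteins of Tmpo, 2 were past the fold in all 6 comparisons, and 1 was higher by as much at day 8 in each genotype (Lemd3 in Kmt2d+/βgeo and Lmna in wild type), near the share of all genes. The 2 lower ones were Lmnb1, encoding lamin B1, which went from 2.13 and 2.02 to 0.177 and 0.222 at day 8, and Lbr, encoding the lamin B receptor, from 0.366 and 0.366 to 0.0710 and 0.0785.

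Of the 3 measured HMG protein genes beside Nucks1, 0 were past the fold. They took different courses. Hmgn1 was lowest at day 2 and by day 8 near its day 0 level, with 11.96 and 11.03 at day 0, 7.61 and 6.97 at day 2, 9.47 and 9.73 at day 4, then 11.4 and 10.2 at day 8. Hmgb1 had 13.95 and 14.1 at day 0 and 7.16 to 7.68 later, and Hmgn3 had 2.55 and 2.43 at day 0 and 2.43 to 3.97 later. Of 10 measured genes listed beside Arl6ip1 under ER shaping, 0 or 1 was past the fold on the low side and 0 to 3 were higher by as much. The list was not of ER shaping genes alone, since it held Arl6 and Arl6ip4, which share part of the name Arl6ip1. Arl6 was among those counted higher at day 8 under the Kmt2d+/βgeo label, with a log2 ratio of 1.13. Atl2, for an ER fusion GTPase, went from 0.135 and 0.137 at day 0 to 0.529 and 0.539 at day 8. These counts describe the lists and carry no test.

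Genes that divide cells or prepare their DNA gave larger counts. Of 10 measured mitosis genes 7 or 8 were past the fold in each comparison, with medians from -2.94 to -2.41, and Ckap5, which also serves microtubules outside mitosis, had 1.502 and 1.24 at day 0 and 2.54 and 3.34 at day 8. Of the 16 measured genes of a G2M phase list without the 6, 9 to 14 were past it. This count is not separate, since Anln, Ckap2, Ckap5, Ect2, G2e3, Kif11, Nusap1 and Tacc3 are on both lists. Lbr and Ncapd2, given above, are also on the G2M list. Of 22 measured S phase genes, 14 to 18 were. Between later days only 5 or 6 of the mitosis genes, 9 to 11 of the G2M genes and 14 to 17 of the S phase genes reached the minimum mean of 0.1. The others entered the comparisons through their day 0 level and could only be lower. Of 17 measured regulators of cell-cycle transcription, 15 or 16 were compared, of which 1 to 4 were past the fold and 0 to 2 higher by as much, and in wild type at days 2 and 4 it was 1 of 15, near the share of all genes. Among the lower ones at day 8 was Lin9, a subunit of the complexes that bind TTTGAA-type sites, with 0.168 and 0.156 at day 0 and 0.0700 and 0.0604 at day 8. Rbl2, a pocket protein of the repressor form, went the other way, from 0.147 and 0.156 to 0.515 and 0.443. Lin9 and Rbl2 do not stand for the whole list. Rb1 was higher, from 0.103 and 0.104 to 0.537 and 0.331, and Rbl1 lower, from 0.126 and 0.0947 to 0.0381 and 0.0475. The log2 ratio of day 8 over day 0 was -0.00253 and 0.202 for Lin54 and -0.339 and 0.00417 for Lin37. Ccnb1, Cdk1, Mki67 and Foxm1 were on these lists and were not analysed here.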

How the data were processed

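Single cells of 8 libraries, 1 per genotype and day, were profiled with 10x 3′ v3 chemistry. Per the submitters' processing notes and the paper, Alevin (Salmon 1.3.0) gave the authors spliced and unspliced counts on GRCm38. They kept the spliced ones, removed cells with few genes and outliers in UMIs, genes, mitochondrial share or doublet score, left out mitochondrial and rare genes, and deposited log2 normalised counts per cell. A deposited cell table by the authors holds total UMIs as estimated counts and names the library of each cell. Outlier removal can take away the deepest, dividing cells, and 3′ tags do not measure isoforms.

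Undoing the log2 here gave normalised counts, which summed to 8707 in every cell. Divided by the worth of 1 UMI, 86.8% of values above 0 lay within 0.01 of a whole number, and all were rounded for thinning to 3000 UMIs per cell without replacement and for summed UMIs. Cells under that depth were left out: 23 of the day 0 and 757 of the day 8 cells labelled Kmt2d+/βgeo and 4 of the day 8 wild-type cells. Ratios of mean normalised counts were taken over genes with a mean of at least 0.1 in either library and counted at a log2 ratio of at least 1. Intervals are 95% exact binomial, Poisson or conditional ones. Each group has 1 library and no test was run, nor was a model with additive genotype and day terms fitted. Curves over position were periodic loess fits (span 0.3) in R 4.3.3. Other steps used Python 3.11.15, numpy 2.4.6, scipy 1.17.1, pandas 2.3.3 and scikit-learn 1.9.0. Only the ratios, the thinning and the correlations were tested on simulated data.

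The genes and lists were chosen with earlier results of these data known. Named genes were the 6, the 3 genes most correlated with each at day 0, and measured members of the fixed lists. The rule does not cover Luzp2, Knl1, Kif18a, Cst3, Serpine2, Cpe and Mt2, which were picked with their values known. Alternatives changed the measure of level, the minimum, thinning, correlation, depth range, embedding genes, centring and span. Cells were not clustered, and doublets were left as the authors treated them.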

Additional observations from a re-analysis of the deposited data

Results flagged for a closer look

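Some ratios of summed UMIs had opposite signs under the same comparison on different days or labels, each outside its own counting interval. With 1 library on each side these differences were not tested, and the shallow day 8 library labelled Kmt2d+/βgeo takes part in each of them. The Top2a ratio of the library labelled Kmt2d+/βgeo over wild type was 0.23 (95% interval 0.08 to 0.39) at day 2 and -0.71 (-1.03 to -0.40) at day 8. The Tmpo ratio was 0.16 (0.12 to 0.20) at day 0, 0.42 (0.34 to 0.51) at day 2, 0.10 (0.0043 to 0.20) at day 4 and -0.18 (-0.32 to -0.03) at day 8. The day 4 value involves the library whose label is in doubt.

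Arl6ip1 at day 8 over day 2 gave -0.13 (-0.17 to -0.09) in the libraries labelled Kmt2d+/βgeo and 0.14 (0.11 to 0.17) in wild type. At day 8 over day 4 it gave -0.19 (-0.22 to -0.15) and 0.10 (0.07 to 0.13). Smc4 at day 8 over day 2 gave -0.18 (-0.29 to -0.06) and 0.11 (0.02 to 0.21). Median depth at day 8 was 3972 UMIs per cell under the Kmt2d+/βgeo label and 6989 under wild type.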

How the results depend on the processing

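No paired or blocked analysis of the libraries was run. All 144 alternative values of the log2 ratios of the 6 genes to day 0 kept their sign, and 8 of 96 between genotypes did not. In size, 102 of all these values moved by more than the margin of the counting interval, and 138 did not. Ratios between later days were less stable, as Top2a at day 8 over day 2 in wild type was 0.33, and -0.17 from summed UMIs. As a difference of mean log2 values, which understates ratios of genes absent from many cells, the genes past the fold numbered 2, 1 and 2 at days 2, 4 and 8 in the libraries labelled Kmt2d+/βgeo and 2, 1 and 1 in wild type, where 0.706%, 0.952% and 2.49% and then 0.429%, 0.97% and 1.65% of all genes were. Top2a at day 8 between genotypes was not counted (0 genes) by that measure, by thinned cells, by summed UMIs or with a minimum mean of 0.5, but was counted without the 5% deepest cells.

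The median correlation at day 0 was 0.348, and 0.544 without thinning, 0.231 at 1500 UMIs and 0.332 by Spearman. After day 0 it was 0.0507, and 0.0676, 0.0321 and 0.0292 in the same order, and 0.0372 without the 5% deepest cells. The difference by Top2a at day 0 was 33.7 points, and 29.5 without thinning, 25.6 at 1500 UMIs and 42.7 where at least 2 Top2a UMIs were asked for. After day 0 it was 17.6 points, and 12.9 without thinning, 20.5 at 1500 UMIs and 56.2 with at least 2 UMIs. Leaving out the day 4 libraries was chosen after seeing the data. Positions of the 6 maxima moved by no more than 0.05π in all 24 alternatives. Why values moved was not tested, and Top2a rests on 111 to 804 UMIs per library after day 0.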
